A study of Mus musculus with 24 samples.

Results

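Male and female quadriceps muscle was compared on the Control diet, over the genes of chromosomes 1 to 19. The comparison was between 12 of the 24 libraries of the study, with the spread estimated from all 24: 6 labelled as male muscle on the Control diet and 6 labelled as female muscle on the same diet, all from mice aged 16 months. Each library was placed by the sex and diet in its label and joined to its column of the count table through its description label. The other 12 libraries, 6 male and 6 female, came from mice of the same age on the Low BCAA diet, a diet low in the branched-chain amino acids. All mice had eaten their diet since weaning and were fasted overnight before the muscle was frozen. The strain is not given in the sources used here, and no genetic change is named. The labels do not say in words that every library is a separate mouse, so the p-values measure the spread between libraries. In whole muscle, fewer cells of a type and less RNA per cell cannot be told apart.

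Skeletal muscle is one of the tissues that differ between the sexes. Androgens, acting through the androgen receptor, and estrogens, acting through estrogen receptors, reach muscle fibres as well as the fibroblasts, vessels and nerve endings around them, and growth hormone is secreted in a different pattern in male and female mice. Autosomal genes are present in equal copy number in both sexes, so a difference between the sexes in such a gene is a difference in transcript amount that gene dose does not set.

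One pathway recurs below. Polyamines are small, positively charged molecules that bind nucleic acids and are needed for growth. Ornithine decarboxylase makes the first of them, putrescine, and S-adenosylmethionine decarboxylase supplies the groups that turn putrescine into spermidine and spermine. Antizymes hold ornithine decarboxylase down, antizyme inhibitors release it, and spermine oxidase turns spermine back into spermidine.

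The Control male libraries held 30,597,878 to 39,309,821 counts and the Control female libraries 32,449,779 to 41,461,832. Xist, the RNA that coats the inactive X chromosome, lay between 281 and 340 CPM (counts scaled to a common library size with TMM factors) in Control females and between 0.274 and 5.43 CPM in Control males. The summed Y-linked genes Ddx3y, Uty, Kdm5d and Eif2s3y lay between 137 and 175 CPM in males and between 0.061 and 2.97 CPM in females. The sex labels of all 12 Control libraries therefore fit these genes, with traces of the other sex in male replicate 5 (Xist) and female replicate 3 (Y-linked genes). Outside the Control diet, Low BCAA female replicate 4 had 0.0775 CPM of Xist and 0.0775 CPM of the Y-linked genes. The summed fast-fibre genes, which define this kind of muscle, lay between 97700 and 140000 CPM in all 12 Control libraries. Fragments of ribosomal RNA made up 6.82%, 4.49% and 29.1% of counts in Control male replicates 4, 5 and 6. In female replicate 6 they made up 2.29%, against at most 0.194% in the other 8. The genes counted for this share include Lars2. A number from 1 to 3 in the description labels, whose meaning is not stated, was 1 in all Control females and 2 or 3 in all Control males, so within this diet it cannot be told apart from sex.

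For the polyamine genes called between the sexes, and for Npnt, the gene with the smallest p, the 250 bases before the transcription start are printed below, from RefSeq on the mouse build GRCm38.p6. Other genes with small p-values (Cdk19, Pde11a, C7 and Slc30a2) are not printed. Amd1 and Amd2 are near-identical copies of the gene for S-adenosylmethionine decarboxylase, Smox encodes spermine oxidase, and Npnt encodes nephronectin, a matrix ligand of integrins. The windows lie at chr10:40302189-40302438 on the minus strand for Amd1, chr10:35711892-35712141 on the minus strand for Amd2, chr2:131491612-131491861 on the plus strand for Smox and chr3:132950292-132950541 on the minus strand for the first of 2 listed starts of Npnt. Capitals mark every GGGCGG (the GC box, on either strand) and every TATAA (the core of a TATA element, on the printed strand).
Amd1: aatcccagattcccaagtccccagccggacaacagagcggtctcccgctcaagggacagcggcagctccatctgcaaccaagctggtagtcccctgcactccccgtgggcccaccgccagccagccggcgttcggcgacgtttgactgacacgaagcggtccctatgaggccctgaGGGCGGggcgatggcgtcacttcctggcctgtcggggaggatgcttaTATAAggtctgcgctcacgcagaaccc
Amd2: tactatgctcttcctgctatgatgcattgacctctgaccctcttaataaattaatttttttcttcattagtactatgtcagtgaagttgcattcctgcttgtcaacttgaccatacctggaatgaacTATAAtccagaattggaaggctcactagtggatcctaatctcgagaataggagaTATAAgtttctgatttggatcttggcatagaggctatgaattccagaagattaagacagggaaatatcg
Smox: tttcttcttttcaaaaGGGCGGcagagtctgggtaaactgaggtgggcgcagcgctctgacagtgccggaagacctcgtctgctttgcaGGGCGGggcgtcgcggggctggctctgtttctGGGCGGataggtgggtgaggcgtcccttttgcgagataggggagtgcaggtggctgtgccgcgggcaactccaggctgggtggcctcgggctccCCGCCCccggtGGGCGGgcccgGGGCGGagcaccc
Npnt: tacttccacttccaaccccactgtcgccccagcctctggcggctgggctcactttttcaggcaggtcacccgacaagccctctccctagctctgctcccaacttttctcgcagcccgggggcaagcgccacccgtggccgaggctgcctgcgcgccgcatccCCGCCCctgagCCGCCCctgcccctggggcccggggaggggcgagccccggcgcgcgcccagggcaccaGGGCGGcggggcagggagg
The Amd1 window holds 1 GC box and 1 TATAA, which begins 27 bases before the start. The Amd2 window holds no GC box and 2 TATAA, the nearer 69 bases before the start. No run longer than 7 bases was common to the Amd1 and Amd2 windows before the start, while in the first 50 bases after it 48 in a row were identical. The 2 copies therefore differ before the start and match after it. Smox has 6 GC boxes and Npnt 3, and neither has a TATAA.

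Letters recognised by steroid receptors were searched in the same way, on both strands, over 31396 windows of 25748 autosomal genes. Of the 64 genes called between the sexes below, 28 of those higher in males and 12 of those higher in females had a window. AGAACA, the half-site of the androgen and glucocorticoid receptors, was found in 4 of the 28, in 3 of the 12 and in 18.2% of all genes. GGTCA, the half-site of the estrogen receptors, was found in 10 of the 28, in 7 of the 12 and in 38.7% of all genes. The full palindromes of the androgen and of the estrogen receptor elements, which contain those half-sites with 3 free bases between them, were found in none of the called genes and in 0.0117% and 0.0699% of all genes. The GC box GGGCGG was found in 17 of the 28, in 3 of the 12 and in 35.7% of all genes, and TATAA in 3 of the 28, in 2 of the 12 and in 18.5%. The shares of all genes include genes that were not tested in this muscle, and the share among tested genes was not computed. A match is a match of letters only, and an absent match says only that these letters are not in these 250 bases.

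In all, 64 of 17493 autosomal genes tested were called between the sexes at an adjusted p under 0.05, which is 0.366%. Of these, 45 (0.257%) were higher in males and 19 (0.109%) were higher in females. The male and female libraries did not overlap for 176 autosomal genes (1.01%), and 55 of the 64 called genes were among them, 40 of the 116 higher in males (0.663%) and 15 of the 60 higher in females (0.343%). The called genes differed by a median log2 fold change (male minus female) of 1.32 in the male direction and -1.43 in the female direction, and at least a 2-fold difference was estimated for 29 of the 45 and 12 of the 19. Over all autosomal genes the median was -0.02. The called genes lay on 19 chromosomes.

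**Figure D1:**
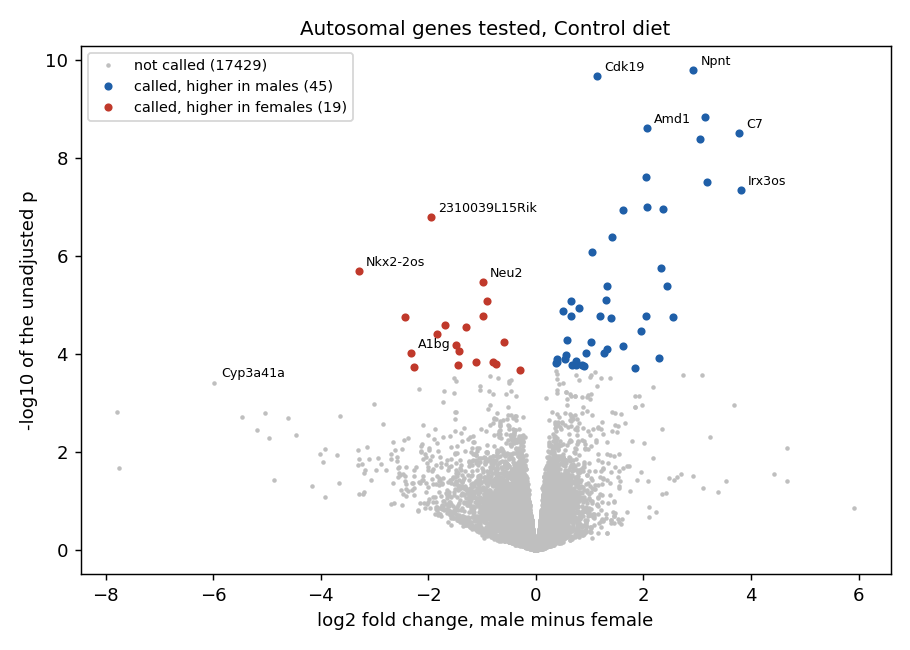
Each point is 1 of the 17493 autosomal genes tested, with the log2 fold change (male minus female, Control diet) on the horizontal axis and the -log10 of the unadjusted p on the vertical axis. The 45 genes called higher in males (blue) include the smallest p-values, Npnt and Cdk19, and the 19 called higher in females (red) are led by 2310039L15Rik and Nkx2-2os; Cyp3a41a is an example of a large estimate that was not called.

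The counts depended on the scaling and on single libraries. With library totals in place of TMM factors the median over all autosomal genes moved to -0.14 and the split became 27 higher in males against 29 higher in females, or 48.2% male against 70.3%. Leaving out each of the 12 libraries in turn gave 30 to 39 genes higher in males and 9 to 25 higher in females, with the lowest male count without female replicate 5, and the lowest and highest female counts without male replicates 5 and 1. Without the 4 Control libraries with over 1% of ribosomal RNA fragments 21 and 2 genes were called, and without the 2 libraries with traces of the other sex 30 and 8. With the description number as a factor 7 genes were called higher in males and 0 in females by edgeR, 5 of them among the 64: Npnt, Amd1, Amd2, 1700001O22Rik and Pde11a. With that factor the adjusted p was 0.0364 for Npnt and 0.0288 for Amd1 and Amd2. It was 0.096 for Cdk19, 0.118 for C7, 0.152 for Smox, 0.209 for Slc30a2, 0.277 for Bnc2, 0.314 for Neu2 and 0.678 for Musk. In that fit the step from number 1 to number 2 comes from the Low BCAA females only, among them replicate 4, nearly without Xist. The step is taken to be equal on both diets, which could not be checked on the Control diet.

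The polyamine genes held 3 of the 45 genes higher in males: Amd1, Amd2 and Smox. Amd1 (chromosome 10) was read at 436 CPM in the lowest male library, 579 at the median and 707 in the highest, and at 75, 137 and 194 CPM in females. Every male library lay far above every female one. The log2 fold change was 2.07 ± 0.221 (SE), a 4.20-fold difference, with an adjusted p of 5.58e-06. Amd2 was read at 7.83, 11.0 and 13.1 CPM in males and at 0.806, 2.00 and 4.10 CPM in females, again without overlap, with a log2 fold change of 2.37 ± 0.312 and an adjusted p of 0.000129. Of the runs of 50 bases in the longest Amd2 transcript (GENCODE M21), 85.7% occur unchanged in Amd1 transcripts, so the division of reads between the copies is uncertain, and the same holds for the pseudogene Amd-ps3 (94.8% of runs), which was also called higher in males (2.06 ± 0.270, adjusted p 0.000127).

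Smox (chromosome 2), whose product breaks spermine down, was read at 62.9, 74.0 and 102 CPM in males (lowest, median and highest) and at 22.2, 27.3 and 43.5 CPM in females. The groups did not overlap, and the log2 fold change was 1.32 ± 0.220 (adjusted p 0.00274). Odc1, the gene of ornithine decarboxylase, was read at 64.1, 102 and 134 CPM in males and at 30.4, 46.3 and 64.7 CPM in females. Its groups touched, since the lowest male library lay just under the highest female one. The estimate of 1.12 ± 0.368 had an unadjusted p of 0.0056 and an adjusted p of 0.331, and it was not called. In a fit of the 12 Control libraries alone the adjusted p of Odc1 was 0.0327, while other genes lost their calls in that fit, as given below.

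No other gene of the polyamine list, which holds autosomal genes only, was called. Of 17 polyamine genes listed 16 were tested and 3 were called, all higher in males, with a list median of 0.22 beside -0.02 over all autosomal genes. Spermidine synthase (Srm) was read at 2.60 ± 0.358 CPM in males (SD, n = 6) and 2.12 ± 0.377 in females, with an adjusted p of 0.662. The antizyme genes Oaz1 and Oaz2 had log2 fold changes of 0.26 and 0.03, and the antizyme inhibitor gene Azin1 had 0.28, none of them called. In the female direction 6 estimates lay below 0. The largest was that of the agmatinase gene Agmat, -1.38 ± 1.06 (adjusted p 0.830), read at 0 to 0.273 CPM in males and 0 to 0.885 CPM in females. Arginase 1 (Arg1), which makes ornithine, had -0.92 ± 1.09 (adjusted p 0.902) with wide overlap, and the acetyltransferase Sat2 had -0.38 (adjusted p 0.598).

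**Figure D2:**
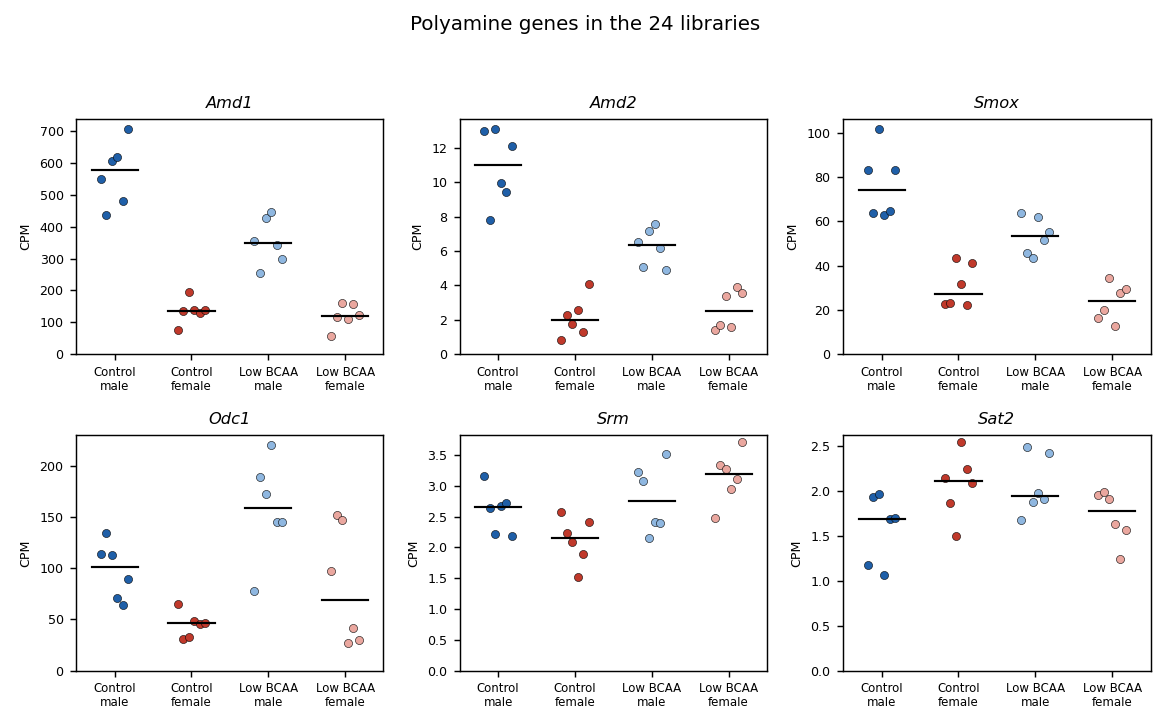
CPM (vertical axis, from 0) of 6 polyamine genes in all 24 libraries, with 1 point per library, the 4 groups side by side and the median as a line. Amd1 and Smox separate males from females on both diets, Odc1 overlaps, and Srm and Sat2 show no separation.

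Npnt (chromosome 3) was read at 7.77, 10.9 and 17.0 CPM in males and at 1.18, 1.43 and 2.32 CPM in females. Every male library lay above every female one, the difference was 7.60-fold (log2 2.93 ± 0.270), and its adjusted p of 5.7e-07 was the smallest among autosomal genes. C7 (chromosome 15), a component of the membrane attack complex, was read at 6.71, 10.6 and 23.7 CPM in males and at 0.397, 0.792 and 1.55 CPM in females. That is a 13.8-fold difference (log2 3.78 ± 0.408, adjusted p 6.11e-06), and male replicate 6 held the highest value. Ltbp1, which encodes a binding protein of latent TGF-beta, was 0.56 ± 0.120 higher in males on the log2 scale (adjusted p 0.0335).

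Slc30a2 (chromosome 4), which moves zinc into vesicles, was read at 4.03, 5.04 and 7.07 CPM in males and at 0.279, 0.491 and 1.21 CPM in females. The groups lay far apart, and the log2 estimate was 3.05 ± 0.333 (adjusted p 7.22e-06). Gadl1 (chromosome 9), an enzyme that makes beta-alanine, a building block of the muscle dipeptide carnosine, was read at 2.92, 4.27 and 6.84 CPM in males and at 0.961, 1.10 and 1.40 CPM in females (2.04 ± 0.247, adjusted p 3.89e-05). The glucose transporter gene Slc2a3 was 1.32 ± 0.276 higher in males (adjusted p 0.0271), with male replicate 1 at 28.5 CPM and the next male at 13.9.

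Cdk19 (chromosome 10), a kinase of the Mediator complex, was read at 24.9, 30.1 and 35.7 CPM in males and at 11.7, 13.2 and 15.7 CPM in females. No library of one sex fell in the range of the other, and the log2 fold change was 1.14 ± 0.107 (adjusted p 6.32e-07). Pde11a, a phosphodiesterase of cyclic nucleotides, was low in both sexes, with 0.607 to 1.63 CPM in males and 0.0672 to 0.148 CPM in females (3.15 ± 0.326, adjusted p 3.71e-06). Hipk2, a nuclear kinase, and Ptpn11, the phosphatase SHP2, were read at higher counts with smaller differences: 0.66 ± 0.116 (adjusted p 0.00497) and 0.51 ± 0.0927 (adjusted p 0.00721). Pde11a, Hipk2, Ptpn11, Slc2a3 and Ltbp1 fall outside the naming rule and were chosen after their values were seen.

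Musk (chromosome 4), the receptor tyrosine kinase that organises the neuromuscular junction, was read at 22.7, 29.7 and 49.6 CPM in males and at 9.23, 12.1 and 15.0 CPM in females. The groups did not overlap, although male replicate 1 stood above the other males. The log2 fold change was 1.39 ± 0.259 (adjusted p 0.00818). Without the 4 libraries rich in ribosomal RNA fragments the estimate was 1.47 with an adjusted p of 0.164. Of 19 genes tested on the list of denervation and the neuromuscular junction Musk was the only one called, and the list median was -0.05. Agrin (Agrn), which acts on the Musk complex, had 0.41 ± 0.190 (adjusted p 0.609), and the acetylcholine receptor genes Chrna1, Chrnb1, Chrnd and Chrne lay between -0.34 and -0.05.

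The other genes named by the rule were called higher in males by 1.42 to 2.32 on the log2 scale. They were Tmem132b (2.32 ± 0.365, adjusted p 0.00145), Cacna2d4, an accessory subunit of calcium channels (1.95 ± 0.381), Tmem100 (1.84 ± 0.417), Galnt17, an enzyme family member of protein O-glycosylation (1.62 ± 0.214), the sorting receptor Sorcs1 (1.62 ± 0.334) and the actin-related Actr3b (1.42 ± 0.204). Tmem132b did not overlap between the sexes, with 26.3 to 47.7 CPM in males and 3.92 to 10.6 CPM in females. Cacna2d4 and Tmem100 did overlap, and the highest male values, 6.90 and 47.7 CPM, stood over male medians of 1.91 and 14.3 CPM.

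**Figure D3:**
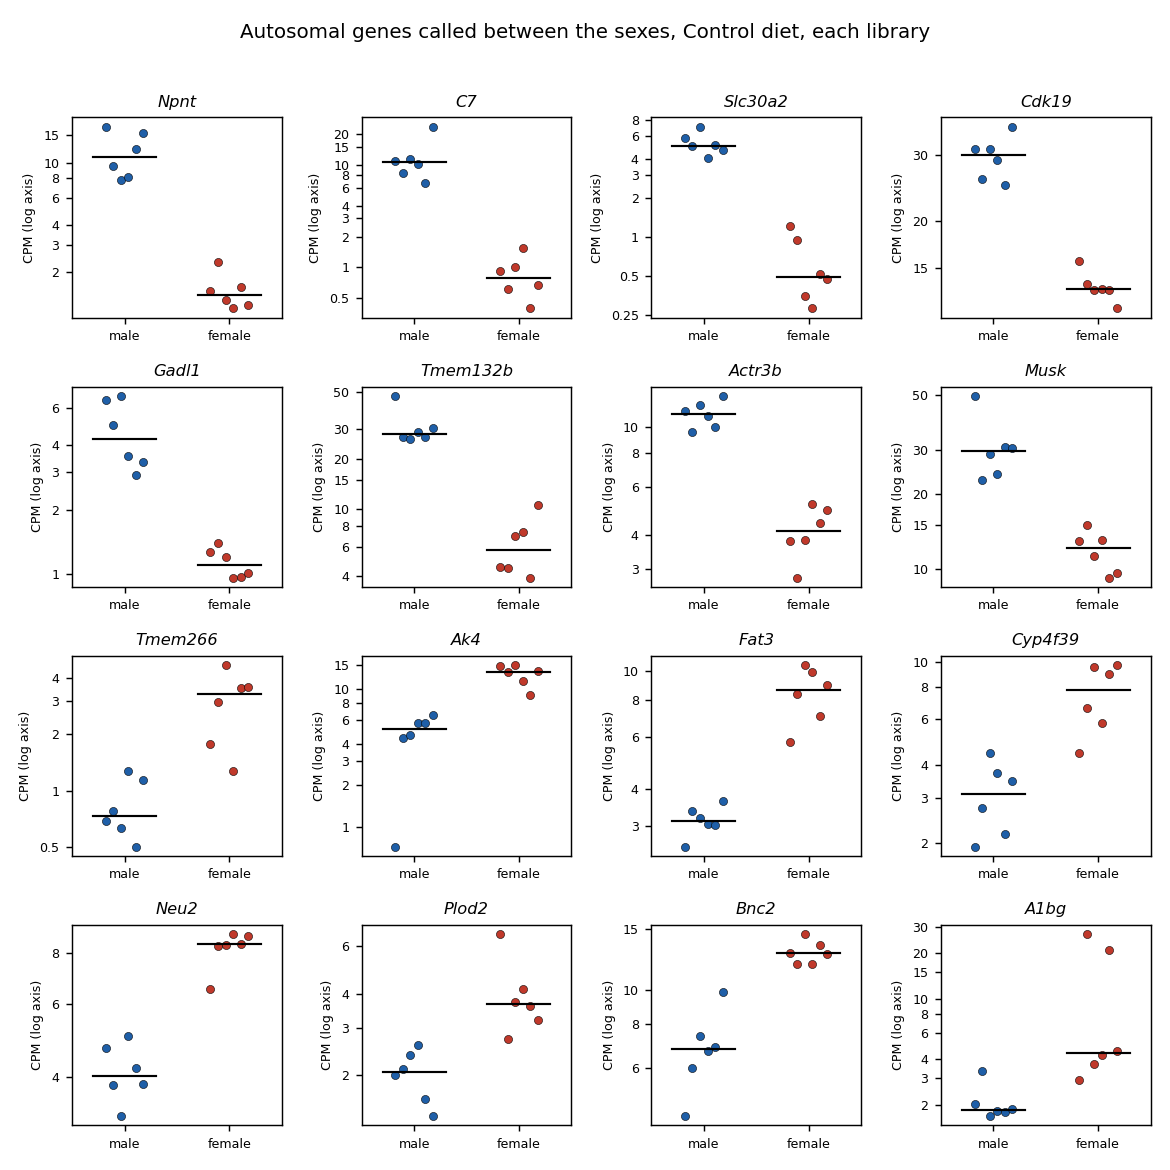
CPM on a log axis for 16 called autosomal genes, with 1 point per Control library (6 male in blue, 6 female in red) and the median as a line. The upper 8 genes are higher in males with no overlap; of the lower 8, higher in females, Tmem266 and A1bg overlap.

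Fewer genes were higher in females: 19 against 45, with estimates from -3.29 to -0.30 on the log2 scale. Neu2 (chromosome 1), a cytosolic sialidase, was read at 3.21, 4.01 and 5.03 CPM in males and at 6.55, 8.40 and 8.90 CPM in females. The ranges were apart, and the log2 fold change of -0.99 ± 0.164 had an adjusted p of 0.00247. Bnc2 (chromosome 4), a zinc-finger protein, was read at 4.38, 6.79 and 9.86 CPM in males and at 11.9, 12.7 and 14.5 CPM in females (-0.91 ± 0.159, adjusted p 0.00497). Plod2 (chromosome 9), which hydroxylates lysines of collagen, was read at 1.42, 2.06 and 2.58 CPM in males and at 2.72, 3.67 and 6.66 CPM in females (-0.98 ± 0.182, adjusted p 0.00815). Cyp4f39 (chromosome 17), a cytochrome P450, was read at 1.94, 3.10 and 4.45 CPM in males and at 4.45, 7.78 and 9.74 CPM in females (-1.29 ± 0.246, adjusted p 0.0117). For Bnc2 and Plod2 no male library reached the lowest female one, and for Cyp4f39 the highest male and lowest female libraries were nearly level.

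A further 7 genes called higher in females lost their calls when single libraries were left out, as given below. Ak4, an adenylate kinase of mitochondria, was read at 0.713, 5.16 and 6.48 CPM in males and at 9.06, 13.4 and 15.1 CPM in females (-1.49 ± 0.306, adjusted p 0.0230), and male replicate 1 was the low one. The voltage-sensor protein gene Tmem266 had -1.83 ± 0.361 (adjusted p 0.0157), the cadherin Fat3 -1.43 ± 0.300 (adjusted p 0.0292), the potassium channel Kcnq5 -1.12 ± 0.247 (adjusted p 0.0409), the phosphatase inhibitor Ppp1r1a -0.80 ± 0.176 (adjusted p 0.0409), Fsbp -1.45 ± 0.322 (adjusted p 0.0421) and the methyltransferase N6amt1 -0.59 ± 0.119 (adjusted p 0.0213). Fat4, a relative of Fat3 chosen after its values were seen, lay the other way, at 0.57 ± 0.114 higher in males (adjusted p 0.0201).

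A1bg, which encodes a plasma glycoprotein made in liver, had the largest female-high estimate among the called genes that the naming rule takes, -2.32 ± 0.493 (adjusted p 0.0311). It was read at 1.70, 1.85 and 3.37 CPM in males and at 2.93, 4.41 and 26.9 CPM in females. The groups overlapped, and female replicates 2 and 5 at 26.9 and 21.0 CPM were far above the other 4. The same replicates had the most albumin transcript (Alb) of the Control libraries, 679 and 390 CPM against at most 180 in the other 10. Without female replicate 2, the only Control library over 500 CPM of Alb, A1bg had -1.77 and an adjusted p of 0.121. The part of other tissue in the A1bg value was not tested.

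Calls differed in how they held when single libraries were left out. In this way 45 of the 64 called genes were examined. They were chosen genes of both directions, not the 45 genes higher in males, and the rest of the 64 were not examined. Of the 45 examined, 26 were called in all 12 of these fits, among them Npnt, C7, Slc30a2, Cdk19, Amd1, Amd2, Smox, Tmem132b, Gadl1, Galnt17, Actr3b, Cacna2d4, Musk, Neu2, Plod2, Bnc2 and Cyp4f39. Tmem266 lost its call without male replicate 3 or 5 or female replicate 3 (adjusted p up to 0.0529), and Ak4 without male replicate 2 or 3 or female replicate 3 (up to 0.0596). Sorcs1 lost it without male replicate 1 or 5 or female replicate 1, 3 or 5 (up to 0.073). A1bg lost it without male replicate 1, 3, 4, 5 or 6 or female replicate 2 or 5 (up to 0.121), and N6amt1 without male replicate 1, 2, 5 or 6 or female replicate 2 or 4 (up to 0.0773).

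Other genes lost their calls as follows. Fat3 kept its call only without male replicate 6 or female replicate 1 or 5 (adjusted p up to 0.073 in the others), Tmem100 only without male replicate 4, 5 or 6 (up to 0.145), and Ppp1r1a only without male replicate 1 (up to 0.117). Fsbp kept it only without male replicate 1, 4 or 6 or female replicate 1 (up to 0.121), and Kcnq5 only without male replicate 4 or 6 or female replicate 1 or 2 (up to 0.123). Slc2a3 lost it without male replicate 1 or female replicate 2, 3, 5 or 6 (up to 0.078), Ltbp1 in 10 of the 12 fits, all but those without female replicate 1 or 4 (up to 0.107), and Fat4 without female replicate 3, 4, 5 or 6 (up to 0.0641).

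Removing several libraries at once, or changing the fit, ended further calls. Without the 4 libraries rich in ribosomal RNA fragments the adjusted p was 0.329 for Cyp4f39, 0.182 for Plod2, 0.1 for Neu2, 0.296 for Hipk2 and 0.253 for Ptpn11. Without the 2 libraries with traces of the other sex it was 0.106 for Cyp4f39 and 0.0506 for Musk. In the fit of the 12 Control libraries alone 52 genes were called higher in males and 15 higher in females, and 36 of the 45 and 8 of the 19 were among them. There the adjusted p was 0.0787 for Cacna2d4, 0.157 for Tmem100, 0.0745 for Slc2a3, 0.13 for A1bg, 0.108 for Ak4, 0.0792 for Fsbp, Kcnq5 and Plod2, 0.0531 for Ppp1r1a and 0.0603 for N6amt1. With limma-voom Cacna2d4 had an adjusted p of 0.105.

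Neighbouring genes were called together in 3 places. Amd1 and Cdk19 lie next to each other on chromosome 10 in the order of tested genes, on opposite strands, and both were higher in males. Col4a4 and Col4a3, which encode chains of basement membrane collagen and also run in opposite directions, are neighbours on chromosome 1. Col4a4 was read at 4.71 to 9.16 CPM in males and 2.84 to 3.97 CPM in females (1.03 ± 0.210, adjusted p 0.0213), and Col4a3 at 3.2 to 7.28 and 1.89 to 3.19 CPM (0.94 ± 0.199, adjusted p 0.0311). Neither pair overlapped between the sexes. Both collagen genes fall outside the naming rule, and the calls of Col4a4 were lost without male replicate 1 or 5 or female replicate 2 or 3 (adjusted p up to 0.0644), those of Col4a3 without male replicate 1, 2 or 5 or female replicate 1, 2, 3 or 5 (up to 0.0894). On chromosome 8 the transcripts A230085B16Rik, 9330121K16Rik and Gm8734 were consecutive and higher in males by 2.29, 2.55 and 2.43 on the log2 scale. Their adjusted p-values were 0.0361, 0.00818 and 0.00274. A230085B16Rik overlapped between the sexes, at means of 1.15 CPM in males and 0.226 CPM in females. These transcripts were not examined by leaving out single libraries.

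Genes not annotated as protein coding made up 11 of the 64 calls, beside 53 protein-coding genes. They were 4 antisense transcripts, 1 lincRNA, 3 processed pseudogenes and 3 whose coding status is undecided in the annotation, while 78% of the autosomal genes tested were protein coding. The antisense transcript Irx3os had the largest male-high estimate of all, 3.81 ± 0.478 (adjusted p 6.18e-05), with 0.331 to 1.33 CPM in males and 0.0284 to 0.075 CPM in females. Irx3, a homeobox gene that it overlaps, had 1.16 ± 0.351 and an adjusted p of 0.252. Nkx2-2os had the largest female-high estimate, -3.29 ± 0.522 (adjusted p 0.00158), with 0.0255 to 0.235 CPM in males and 0.424 to 1.74 CPM in females. The lincRNA 2310039L15Rik had the smallest adjusted p in the female direction, 0.000171, with 0.178 to 0.730 CPM in males and 1.06 to 1.95 CPM in females (-1.95 ± 0.264). None of these 3 overlapped between the sexes. Their names and values were chosen after the values were seen, and the strand used in counting is not given in the sources used here, so reads of an antisense transcript and of its partner cannot be told apart.

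The same comparison was made between the 12 Low BCAA libraries, whose means do not enter the Control contrast. Both contrasts share 1 estimate of the spread from all 24 libraries, so their calls are not fully independent. The number in the description labels was 3 in all Low BCAA males and 1 or 2 in all Low BCAA females. On this diet too it cannot be told apart from sex, and the females had the lower numbers on both diets. All 64 genes had the same sign there, beside 58.2% of all autosomal genes, and 36 were called in the same direction: 28 of the 45 higher in males and 8 of the 19 higher in females. These are 56.2% of the Control calls and 30.3% of the 119 autosomal genes (0.68%) called on the Low BCAA diet, where the background was 0.457% in the male and 0.223% in the female direction. The estimate was larger on the Control diet for 60 of the 64, which were chosen on that diet. Amd1 had 1.55 on the Low BCAA diet (adjusted p 0.000403), with 256 to 445 CPM in males and 58.4 to 162 CPM in females, and Npnt had 2.61 (adjusted p 3.36e-06). Low BCAA female replicate 4, the library nearly without Xist, held 110 CPM of Amd1 and 2.61 CPM of Npnt, below every Low BCAA male, and without it 31 in place of 36 genes were called on both diets.

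The test of a difference between the diets called 0 of 17493 autosomal genes by edgeR (0%). At an unadjusted p under 0.05 there were 1041, the smallest adjusted p was 0.46, and DESeq2 called 6. The smallest p-values by the naming rule belonged to Slc10a1, Lars2, Slc31a2, Serpind1, Ccdc134 and Tacc3. Lars2 was counted here with the ribosomal RNA fragments, whose share differed widely between libraries. Among the 64 called genes 11 had an unadjusted interaction p under 0.05. Musk was one of them: its log2 fold change was 1.39 on the Control diet and 0.41 on the Low BCAA diet (interaction p 0.0122, adjusted 0.563). Rhbdl3, chosen after its values were seen, had 1.19 and 0.25 (adjusted 0.46), and A1bg had -2.32 and -0.11 (adjusted 0.46). The interaction did not pass for any of the 3.

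The lists of sex steroid and growth hormone genes held no called gene. Of 19 tested genes of sex steroids and steroid receptors 8 estimates were higher and 11 lower in males, with a median of -0.04. The estrogen receptor gene Esr1 was read at 24.5, 30 and 35.8 CPM in males and at 21.2, 33.8 and 41.6 CPM in females, and the log2 estimate was -0.15 ± 0.220 (adjusted p 0.931). The estrogen-responsive Greb1 had -1.19 ± 0.509 (adjusted p 0.573), and Gper1, a membrane receptor for estrogen, had 0.50 ± 0.193 (adjusted p 0.470). Of 20 growth hormone and IGF genes 12 estimates were higher in males, with a median of 0.04. Cish, a target of the transcription factor STAT5, was read at 0.705, 7.22 and 12.5 CPM in males and at 0.657, 1.25 and 1.74 CPM in females, so the highest males were far above all females but the groups overlapped (2.35 ± 0.717, adjusted p 0.262). Grb10, an adaptor that restrains insulin and IGF receptors, had -0.52 ± 0.141 (adjusted p 0.152) and was called on the Low BCAA diet (-0.80, adjusted p 0.00668). Igf1 itself had 0.31 ± 0.412 (adjusted p 0.919).

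Genes of contraction and energy supply held no called member on the Control diet. The fast-fibre list had 0 of 17 called and a median of -0.07, and its main myosin Myh4 was read at 47100, 48200 and 58400 CPM in males and at 43300, 53800 and 69600 CPM in females. Myh1 and Myh2, the other fast myosins, ranged widely in males (105 to 6490 and 1.2 to 2440 CPM), and females lay within 2290 to 4780 and 752 to 3090 CPM. Oxidative phosphorylation (73 genes tested, median 0.01), glycolysis and glycogen (26, median -0.03), fatty acid uptake and oxidation (33, median -0.02), calcium handling (20, median 0.00) and insulin and mTOR signalling (26, median 0.01) all had medians near that of all autosomal genes and 0 called. The catabolism of branched-chain amino acids (26, median -0.09) and the atrophy and FoxO genes (22, median -0.20) had 0 called, and in the atrophy list Trim63 was read at 121 to 520 CPM in males and 95.8 to 1260 CPM in females. Akt1, a kinase of insulin signalling, did not overlap between the sexes, with 21.8 to 26.0 CPM in males and 16.4 to 21.1 CPM in females, but was not called (0.31 ± 0.113, adjusted p 0.429).

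Slow-fibre genes varied from library to library. Of 15 tested 13 estimates were lower in males and 0 were called, with a median of -0.97. Myh7, the slow myosin, was read at 0.0255, 1.85 and 57.3 CPM in males and at 1.70, 18.0 and 709 CPM in females, with overlap across most of the range (-3.92 ± 2.14, adjusted p 0.713). The summed slow-fibre genes lay between 57.7 and 537 CPM in males and between 92.3 and 1780 CPM in females. The medians of these sums lay the other way, at 200 CPM in males and 162 CPM in females. With the 1 library over 500 CPM of Alb left out, female replicate 2, the list median was -0.37.

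Markers of other cell types held no called gene apart from A1bg. All 14 lymphocyte genes tested had lower estimates in males, with a median of -2.20. The median of their summed level lay the other way, at 136 CPM in males and 101 CPM in females. Over the alternative fits the list median ran from -2.62 to 0.86. The B cell gene Ms4a1 was read at 14.0 CPM in female replicate 3 and at most 0.580 CPM in the other 5 females and 0.586 CPM in males. Without female replicate 3 its log2 fold change was 0.08 in place of -3.24. Macrophage genes (23 tested) had a median of -0.29, endothelial genes (15) 0.24, fibroblast and matrix genes (24) 0.28, Schwann cell genes (15) 0.18, white adipocyte genes (20) 0.28 and brown adipocyte genes (9) 0.47, with 0 called in each. Hepatocyte genes (20) had a median of -0.72. The 11 tested genes that liver expresses more in females were all lower in males, with a median of -3.07 and A1bg alone called. Of the 11 that liver expresses more in males 9 were higher in males, with a median of 1.39 and 0 called. Some of these genes, among them Cyp3a41a and Cyp2d9, passed the filter only with the Low BCAA libraries included. In the fit of the 12 Control libraries alone the median of the female-biased list was -0.47. The summed level of the female-biased liver genes was 20.8 to 35.6 CPM in males and 25.3 to 139 CPM in females, that of the male-biased ones 0.533 to 46.2 and 0.874 to 17.2 CPM, and that of the lymphocyte genes 123 to 189 and 20.7 to 931 CPM. The part of these cells in the results was not tested. Of the mammary epithelial genes only 2 of 13 were high enough to be tested.

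**Figure D4:**
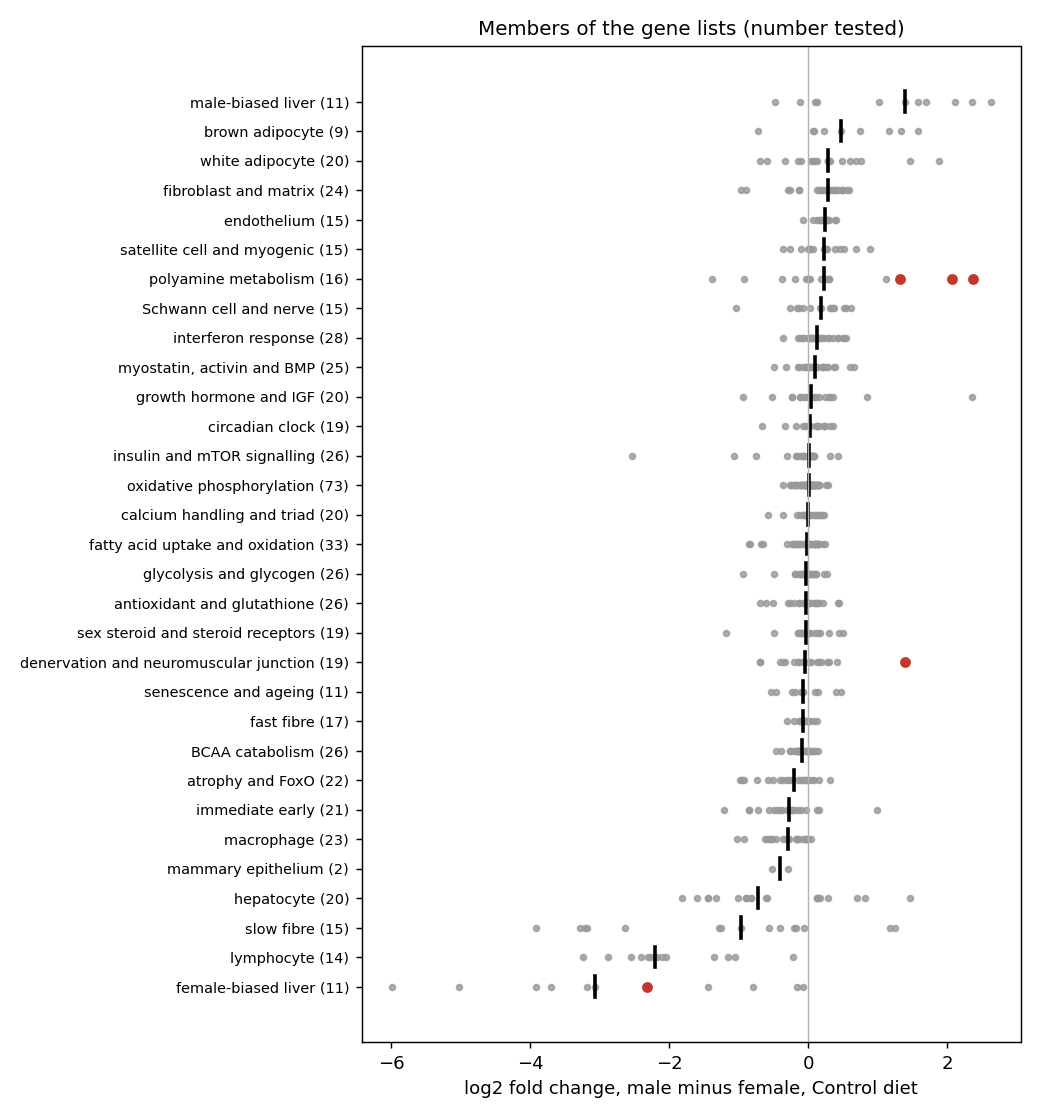
Log2 fold change (male minus female, Control diet) of every tested member of the 31 gene lists, 1 row per list with the number tested, grey points for genes not called, red for called genes and a black bar for the median. Red points appear in 3 lists: polyamine metabolism (Amd1, Amd2, Smox), the neuromuscular junction (Musk) and female-biased liver genes (A1bg).

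The other lists held 0 called genes as well. Estimates in the satellite cell and myogenic list (15 tested) had a median of 0.23, in the myostatin, activin and BMP list (25) 0.10, in the interferon response (28) 0.12, in the circadian clock (19) 0.02, among immediate early genes (21) -0.28, in the antioxidant and glutathione list (26) -0.03 and in the senescence and ageing list (11) -0.07. Gstm2, a glutathione transferase, did not overlap between the sexes, with 13.8 to 27.6 CPM in males and 29.4 to 37.1 CPM in females, and missed the threshold (-0.70 ± 0.165, adjusted p 0.0636). Without male replicate 1 it was called. The tumour suppressor gene Rb1 did not overlap either (-0.19 ± 0.0685, adjusted p 0.438).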

How the data were processed

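RNA of frozen quadriceps was sequenced in 24 libraries in 4 groups of 6. The authors deposited expected counts per gene from RSEM, the tool named in the table's title, in a single table. Per the submitters' processing notes the build was mm9. The sources used here do not give the aligner, the annotation or the RSEM version. Gene names and chromosomes came from GENCODE M21 by gene identifier, which matched 51719 of 51912 identifiers. Depth and its ranges are given with the libraries.

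Expected counts were rounded to whole numbers. All 24 libraries were fitted in edgeR 4.0.16 (R 4.3.3) with 1 coefficient per group, TMM factors, filterByExpr by group and the quasi-likelihood test. P-values were adjusted by Benjamini-Hochberg over all 18098 genes tested, of which 17493 were autosomal, and those with an adjusted p under 0.05 count as called. Every adjusted p in the text is of this kind unless another tool is named. CPM values were computed with the TMM factors. The procedure was tested on simulated counts drawn with the spread of these data. Those counts held no differences between libraries in ribosomal RNA fragments, other tissue, traces of the other sex or description number. That test therefore cannot speak to these.

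Genes were named by a rule: autosomal, with a name that is neither predicted nor a pseudogene's, a mean log2 CPM of at least 0, and among the 12 largest changes or 8 smallest p-values of the called genes in a direction, up to 4 smallest p-values of each of 31 gene lists, 6 smallest p-values of the interaction, or fixed by name. Genes outside it that the text names were chosen after their values were seen. The gene lists and the comparison itself were chosen with earlier results of these data known. Alternatives were DESeq2 1.42.0, limma 3.58.1 (voom), other scalings and filters, the 12 Control libraries alone, the description number as a factor, and fits without libraries.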

Additional observations from a re-analysis of the deposited data

Results flagged for a closer look

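Among the genes of the text, single libraries stood apart from the other 5 of their group for 20 of 152 pairs of gene and group. The gap was large against the range of the group. For normally distributed values chance alone marks about 1 in 20 groups in this way. CPM values need not be distributed so, and the pairs share libraries, so that rate is only a rough guide. In Control males, replicate 1 was the highest for Tmem132b at 47.7 CPM, Musk at 49.6 CPM, Pde11a at 1.63 CPM, Slc2a3 at 28.5 CPM and Myh4 at 58400 CPM, and the lowest for Ak4 at 0.713 CPM. Male replicate 3 was the highest for the slow-fibre genes Myh7 at 57.3 CPM and Tnnt1 at 8.52 CPM, and male replicate 5 for Agrn at 19.2 CPM and Cyp3a41a at 0.604 CPM. Male replicate 6 was the highest for C7 at 23.7 CPM and male replicate 2 for A1bg at 3.37 CPM.

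In Control females, replicate 3 was the highest for Ms4a1 at 14.0 CPM, for the adipocyte hormone gene Lep at 19.2 CPM and for the liver gene Cyp2d9 at 0.475 CPM. Female replicate 1 was the lowest for Neu2 at 6.55 CPM and the highest for Plod2 at 6.66 CPM. Female replicate 2 was the highest for Myh2 at 3090 CPM, female replicate 4 for Rb1 at 27.0 CPM and female replicate 6 for Irx3 at 0.773 CPM.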

How the results depend on the processing

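Against 45 autosomal genes higher in males and 19 higher in females, DESeq2 called 86 and 45, limma-voom with quality weights 86 and 51, limma-voom 12 in females, library totals 27 and 29, and an adjusted p under 0.1 called 34 in females. When the fit took the number in the description labels as a factor, 7 and 0 were called by edgeR (1031 and 1268 at an unadjusted p under 0.05), without the libraries rich in ribosomal RNA fragments 21 and 2, and without the libraries with traces of the other sex 30 and 8. This last alternative and the one without Low BCAA female replicate 4 were chosen after seeing the data. Leaving out each library gave 30 to 39 in males and 9 to 25 in females. DESeq2 called 67 genes on both diets in place of 36 and 6 for the interaction in place of 0. Of the 45 called genes examined, which are of both directions, 4 were called under every alternative that tested them. They were Npnt, Amd1 and Amd2 under all 30 and Pde11a under the 29 in which it was tested. Signs reversed for genes that were not called: with the number as a factor Odc1 had -0.56, Cd3e 0.83, Esr1 0.72 and Myh2 -2.57. Without the libraries rich in ribosomal RNA fragments Igf1 had -0.23, Myh2 -0.45 and Myh4 0.00. Ms4a1 had 0.14 without the libraries with traces and 0.08 without female replicate 3, within a range of -3.66 to 0.08 when each library was left out. Myh2 had -1.26 with limma-voom, -0.58 with quality weights, -0.11 with library totals and -0.18 without the libraries with traces. Myh1 had 0.04 without the library over 500 CPM of Alb. Leaving out each library gave -0.14 to 0.51 for Myh2 and -0.28 to 0.21 for Myh1. The cause was not tested in any of these. No paired analysis was possible because the labels give the libraries no replicate numbers that are shared between the groups.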
